A study of Mus musculus with 12 samples.

Results

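The cytosolic and endosomal sensors of nucleic acids, with the adaptors that pass on their signals, were examined in total RNA of mouse heart. The 10 genes were chosen by name as candidates to see mitochondrial RNA or DNA that has left the organelle, out of 54751 features in the deposited table. All 10 matched 1 row each, and all 10 passed the filter for testing, a mean of at least 10 normalised counts. Ddx58, Mb21d1 and Tmem173 are older names of Rigi, Cgas and Sting1.

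The hearts came from C57BL/6N mice aged 52 weeks, and 3 libraries were labelled control and 3 knockout. Controls were Rexo2loxP/loxP, with loxP sites in both copies of the gene, and Rexo2 encodes a mitochondrial exonuclease of short RNAs. Knockouts are written Rexo2loxP/loxPloxP/loxP, +/Ckmm in the sample labels and Rexo2loxP/loxP, +/Ckmm in the text of the series. Ckmm is the muscle creatine kinase gene, and its promoter is a usual driver of Cre in striated muscle. Non-muscle cells of the heart usually keep a gene floxed in this way. The effect of the Ckmm allele itself cannot be told apart from that of losing Rexo2. Libraries carry the numbers of the table's columns, and values per library are normalised counts, given in the order 490, 498, 502 for controls and 492, 499, 501 for knockouts. No label says that each library is a separate animal, and p-values therefore cover the spread of these samples alone, technical or not.

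Depth ran from 41979163 to 50764023 reads per library. Features of mitochondrial DNA took 69.4%, 70.0% and 69.5% of the reads in controls and 71.5%, 71.9% and 71.5% in knockouts, so every knockout was higher. Rexo2 itself had normalised counts of 330, 368 and 293 in controls against 274, 288 and 314 in knockouts, so its summed count did not separate the groups and gives no check of the labels. The summed counts of 10 cardiomyocyte markers ran from 1849037 to 1972116 in control and from 1805836 to 1902985 in knockout libraries. On the first principal component of all tested features, with 26.4% of the variance, control 490 had a score of -30.1 and the other 5 libraries had scores from -5.63 to 16.7. On the second, with 22.5%, knockout 492 was at -25.5 and knockout 501 at 25.9, with the other 4 libraries from -2.47 to 2.64.

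Sensors of this kind recognise RNA or DNA in a place or form in which a healthy cell does not hold it. Ddx58 and Ifih1 bind double-stranded RNA in the cytosol and signal through Mavs on the outer mitochondrial membrane, Mb21d1 makes a cyclic dinucleotide on binding DNA that activates Tmem173, and both routes lead to the transcription factor Irf3 and to interferon. Mitochondria can supply both kinds of ligand, since transcription of both strands of their genome gives RNA able to pair and the genome itself can leak. Several of the sensors are themselves induced by interferon through a promoter element, the interferon-stimulated response element (ISRE).

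That element was looked for in RefSeq promoter windows of GRCm38.p6, each running from 250 bases before to 50 bases after a gene's start. The letters searched, on both strands, were TTTC, any 2 bases and TTTC again, and 7 of the 10 genes had a window. The motif was found in 3 of these 7, Ddx58, Ifih1 and Eif2ak2, against 3.44% of the 32851 windows in the table. The stretches are shown because these 3 genes can be set beside the 4 without the motif, Mavs, Mb21d1, Irf3 and Tlr3. Each is printed 5′ to 3′ on the gene's strand, with the motif in capitals and up to 10 bases on either side. Capitals that start with GAAA are the motif read from the other strand. All 3 genes lie on the minus strand, and all 3 motifs lie after the annotated start, their first base at position 3, 33 and 19 of the transcript in the order printed.
Ddx58 (chr4:40239804-40239833): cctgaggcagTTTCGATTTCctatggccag
Ifih1 (chr2:62646206-62646233): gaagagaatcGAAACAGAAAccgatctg
Eif2ak2 (chr17:78882535-78882564): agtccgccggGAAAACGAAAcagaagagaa
A match of letters is a description and not evidence of binding.

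None of the 10 genes passed the test for a difference between the groups across all 18250 features tested. limma called 0 of 10 at an adjusted p under 0.05, where it called 0.0219% of all tested features. edgeR also called 0 of 10, with 0.0274% of all features called, and DESeq2 called 0 of the 5 to which it gave an adjusted p, with 0.437% of its 7550 features called. At an unadjusted p under 0.05 each of limma, edgeR and DESeq2 had 1 of the 10, in each case Eif2ak2. Among the 18250 features tested the share was 3.7% for limma and 3.78% for edgeR. DESeq2, run without the filter, had 1% of the 32228 features to which it gave a p-value. Groups did not overlap in 2 of the 10 genes, Eif2ak2, higher in knockout, and Mb21d1, lower, while 9.51% of all tested features had no overlap, 4.61% higher and 4.9% lower in knockout. The log2 fold change (knockout minus control, taken on log2(value + 1)) lay above 0 for 7 genes and below 0 for 3. The median of the 10 was 0.044, and over all tested features it was 0.00056 with 50.2% above 0. Without control 490, 2 of the 10 lay above 0 and the median was -0.061, since Ifih1, Mavs, Tmem173, Zbp1 and Tlr3 turned below 0. Without control 502, 8 lay above 0, the median was 0.13 and 6 genes did not overlap, where 18.7% of all features did not. Without knockout 492, 5 lay above 0 and the median was -0.0046. Without knockout 499 the median was 0.089 and 3 genes did not overlap, against 17.6% of all features. Without control 498 the median was 0.026.

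**Figure D1:**
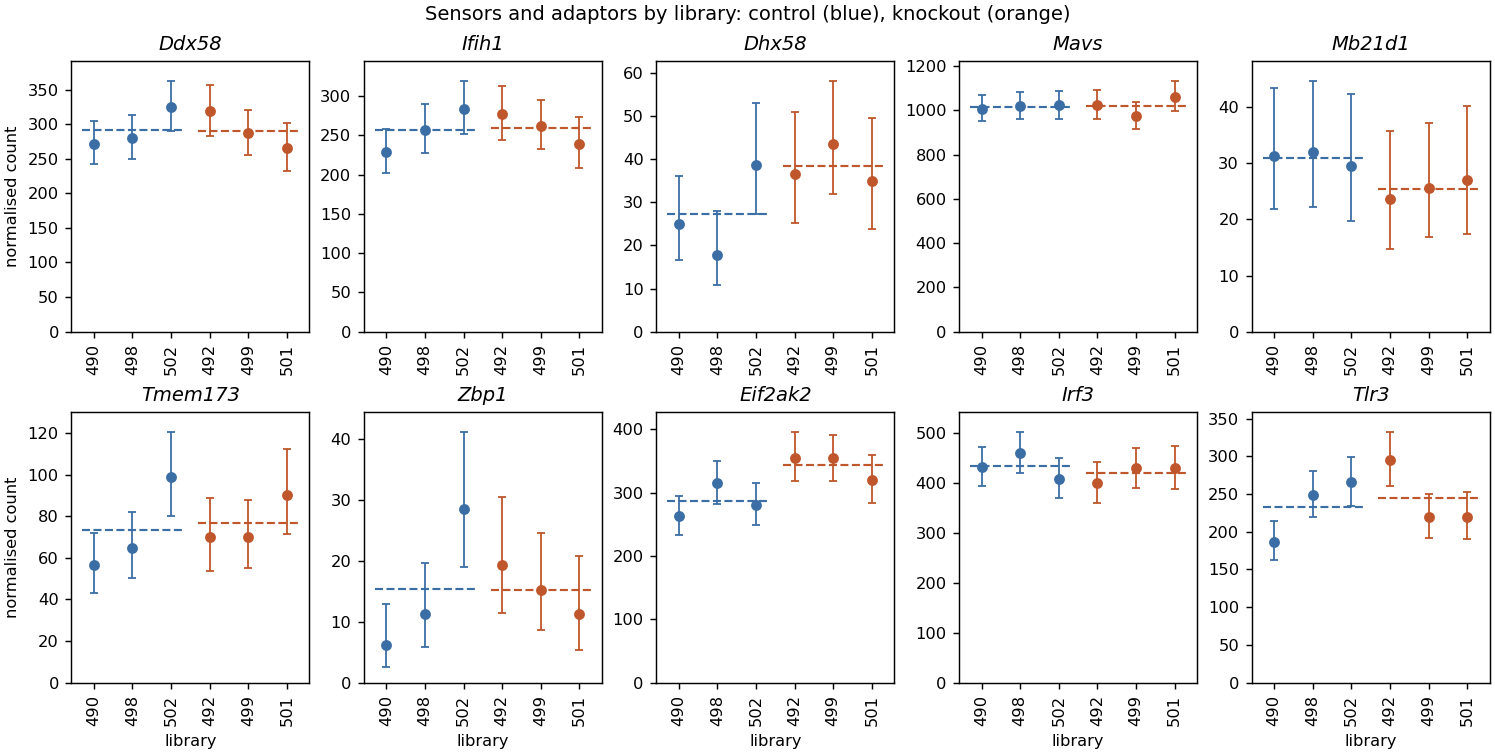
Normalised counts (vertical axes, starting at 0, each with its own scale) of the 10 genes in the 3 control (blue) and 3 knockout (orange) libraries, with error bars giving the 95% Poisson interval of counting and dashed lines the group means. Only Eif2ak2 and Mb21d1 show groups that do not overlap, and Zbp1 in control libraries runs from 6.25 to 28.5.

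The RNA helicases come first in the cytosolic route. Ddx58 (ENSMUSG00000040296.15, chromosome 4, 40203777 to 40239825), which binds short double-stranded RNA with a free 5′ triphosphate, stood at 272, 280 and 325 normalised counts in controls and at 319, 287 and 265 in knockouts. The highest libraries were 1 of each group, control 502 and knockout 492, and the groups overlapped over nearly their whole range. The means of 292 ± 28.4 and 290 ± 27.0 (SD, n = 3 per group) differed by -0.0089 in log2 fold change (95% interval -0.23 to 0.21). As a fold that interval ran from 0.854 to 1.16. With equal totals of features outside mitochondrial DNA the estimate was 0.018.

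Ifih1 (ENSMUSG00000026896.14, chromosome 2, 62595618 to 62646255), also known as MDA5, binds long double-stranded RNA and is the helicase most often linked to mitochondrial double-stranded RNA. It stood at 229, 258 and 284 in controls and at 277, 262 and 239 in knockouts. The order of the libraries within each group was that of Ddx58, with control 490 lowest and control 502 highest among controls and knockout 501 lowest and knockout 492 highest among knockouts. The means of 257 ± 27.6 and 259 ± 19.0 (SD, n = 3) gave a log2 fold change of 0.018, with an interval from -0.21 to 0.24, or 0.867 to 1.18 as a fold. Its sign turned with equal library totals, to -0.052. A long noncoding gene, Gm39839, shares 3543 bases of the Ifih1 span, and the sources used here do not say whether the counting used strand.

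Dhx58 (ENSMUSG00000017830.15, chromosome 11, 100694884 to 100704271), also known as LGP2, lacks the signalling domains of the other helicases and modulates them. It stood at 25.0, 17.9 and 38.7 in controls and at 36.5, 43.6 and 35.0 in knockouts. The knockout libraries lay close together, and control 502 lay within their range while the other 2 controls lay below it. This was the largest estimate among the 10, a log2 fold change of 0.54 (SE 0.28, 95% interval -0.061 to 1.15) whose adjusted p by limma was 1.00 (unadjusted p = 0.0744). It was 0.29 without control 498 and 0.82 without control 502. The counts rest on 19 to 46 reads per library, and the Poisson interval of control 498 alone ran from 10.8 to 27.9. The noncoding gene Gm38483 shares 2646 bases with its span.

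Mavs (ENSMUSG00000037523.13, chromosome 2, 131234063 to 131248025), the adaptor of Ddx58 and Ifih1, was the most precisely measured of the 10. It stood at 1009, 1020 and 1023 in controls and at 1025, 975 and 1063 in knockouts. The controls spanned a ratio of 1.01 from highest to lowest and lay inside the range of the knockouts. The log2 fold change was 0.0046 (SE 0.059), and the interval as a fold ran from 0.919 to 1.10. With equal library totals it was -0.065. Within groups the reads of Mavs varied by a chi-square per degree of freedom of 0.950, where counting alone gives about 1.

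In the DNA route, Mb21d1 (ENSMUSG00000032344.17, chromosome 9, 78430518 to 78443237), the cyclic GMP-AMP synthase, stood at 31.3, 32.0 and 29.5 in controls and at 23.6, 25.6 and 27.1 in knockouts. All 3 knockouts lay below all 3 controls. The means of 30.9 ± 1.27 and 25.4 ± 1.73 (SD, n = 3) gave a log2 fold change of -0.27 (SE 0.23, 95% interval -0.77 to 0.23) whose adjusted p by limma was 1.00. The separation was narrow against counting error, since each value rests on 22 to 35 reads. The Poisson interval of control 502 ran from 19.8 to 42.4 and that of knockout 501 from 17.3 to 40.3. Its chi-square per degree of freedom within groups was 0.0802, less spread than counting would usually give. With 1 library left out the estimate ran from -0.32 to -0.22.

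Tmem173 (ENSMUSG00000024349.9, chromosome 18, 35733678 to 35740554), the STING adaptor that binds the product of Mb21d1, stood at 56.3, 64.9 and 98.7 in controls and at 69.8, 70.1 and 90.3 in knockouts. A single high library stood out in each group, control 502 and knockout 501, and the groups overlapped. The log2 fold change was 0.096 with an interval from -0.35 to 0.54, and it moved to -0.071 without control 490 and to 0.33 without control 502.

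Zbp1 (ENSMUSG00000027514.14, chromosome 2, 173206612 to 173218959) binds nucleic acids in the left-handed Z form and can start cell death through Ripk3. Its counts of 6.25, 11.3 and 28.5 in control 490, 498 and 502 spanned a ratio of 4.56, and those of 19.3, 15.1 and 11.3 in knockout 492, 499 and 501 a ratio of 1.71. The knockouts lay inside the range of the controls. The group means, 15.3 ± 11.7 and 15.3 ± 4.02 (SD, n = 3), had a ratio of 0.994, while the log2 fold change was 0.21 with an interval from -0.80 to 1.21. On the recovered reads it was 0.026 by edgeR and 0.0053 by DESeq2. The limma estimate was -0.26 without control 490 and 0.75 without control 502. The spread among controls exceeded counting error, with 7 reads in control 490 (Poisson interval 2.51 to 12.9 normalised counts) and 28 in control 502 (18.9 to 41.2).

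Eif2ak2 (ENSMUSG00000024079.4, chromosome 17, 78850504 to 78882572), known as PKR, is a kinase that double-stranded RNA activates to phosphorylate eIF2alpha and slow translation. It stood at 263, 315 and 281 in controls and at 355, 354 and 320 in knockouts. All 3 knockouts lay above all 3 controls, though knockout 501 and control 498 were close. The means of 286 ± 26.5 and 343 ± 19.8 (SD, n = 3) gave a log2 fold change of 0.26 (SE 0.094, 95% interval 0.063 to 0.47). The unadjusted p was 0.0140 by limma, 0.0126 by edgeR and 0.0363 by DESeq2, and the adjusted p was 1.00 by each. The authors' deposited table gave the same log2 fold change, 0.26, with an adjusted p of 1.00. With 1 library left out the estimate ran from 0.20 to 0.33. The annotated pseudogene Gm6548 lies within the Eif2ak2 span over 2041 bases. It held 354 ± 29.7 counts in control and 379 ± 28.4 in knockout (SD, n = 3), a log2 fold change of 0.10, and its part in the Eif2ak2 count was not tested. The gene Gm26637 shares 689 bases and held under 4 counts in every library.

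Irf3 (ENSMUSG00000003184.15, chromosome 7, 44997648 to 45002848), the transcription factor on which both routes meet, is regulated mainly by phosphorylation. It stood at 432, 460 and 409 in controls and at 399, 430 and 430 in knockouts. The groups overlapped, and the log2 fold change was -0.046 with a fold interval from 0.862 to 1.09. It ran from -0.087 without control 502 to -0.0026 without control 498.

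Tlr3 (ENSMUSG00000031639.12, chromosome 8, 45395665 to 45411075) is the endosomal receptor of double-stranded RNA. It stood at 187, 248 and 266 in controls and at 295, 220 and 220 in knockouts. The highest library was a knockout and the lowest a control, with the other 4 between them. The log2 fold change of 0.071 had an interval from -0.24 to 0.38 and moved to -0.082 without control 490 and to -0.071 without knockout 492. Its reads spread within groups by a chi-square per degree of freedom of 7.63, the most of the 10, where the median of all tested features was 1.79.

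**Figure D2:**
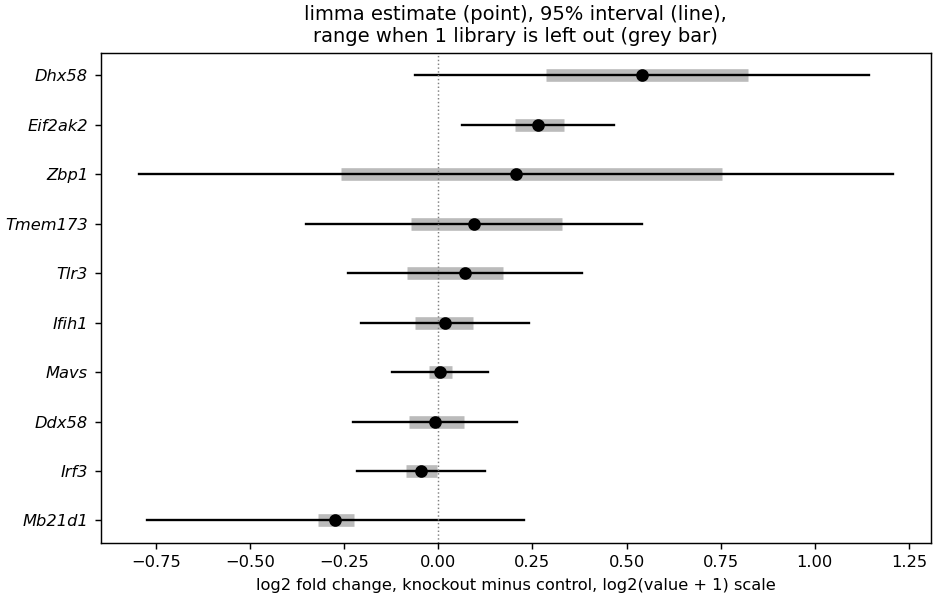
Log2 fold change of the 10 genes (horizontal axis, knockout minus control, on the log2(value + 1) scale) with points for the limma estimate, lines for its 95% interval and grey bars for the range over the 6 fits that left out 1 library. The interval of Eif2ak2 lies above 0 before adjustment, and the grey bar of Zbp1 runs from -0.26 to 0.75.

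The precision of these comparisons differed by gene. For Mavs, Irf3, Ddx58 and Ifih1 the intervals did not extend beyond a fold of 1.18 higher or 0.854 lower. For Dhx58, Zbp1 and Mb21d1, which rest on 7 to 46 reads per library, upper limits were 2.21-fold, 2.31-fold and 1.17-fold, and lower limits 0.958, 0.576 and 0.585. The 3 genes with the ISRE letters had log2 fold changes of -0.0089 for Ddx58, 0.018 for Ifih1 and 0.26 for Eif2ak2. The 4 without them had 0.0046 for Mavs, -0.27 for Mb21d1, -0.046 for Irf3 and 0.071 for Tlr3, and these ranges overlapped.

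The libraries within a group differed from each other over several of the 10 genes at once. Control 502 was the highest control for 7 of the 10 genes and control 490 the lowest for 7. Among knockouts, 492 was highest for 5 and 501 lowest for 5. Each gene's deviation from its own mean over the 6 libraries had a median over the 10 genes of -0.21 in control 490 and 0.15 in control 502, a gap wider than the medians of the knockouts, which ran from -0.017 to 0.12 (log2 scale). In 8 of the 10 genes the range of the 3 controls was wider than the difference between the group means. The shares of all tested features with these library orders, or with so wide a control range, were not taken. These patterns therefore cannot be called particular to the 10 genes.

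**Figure D3:**
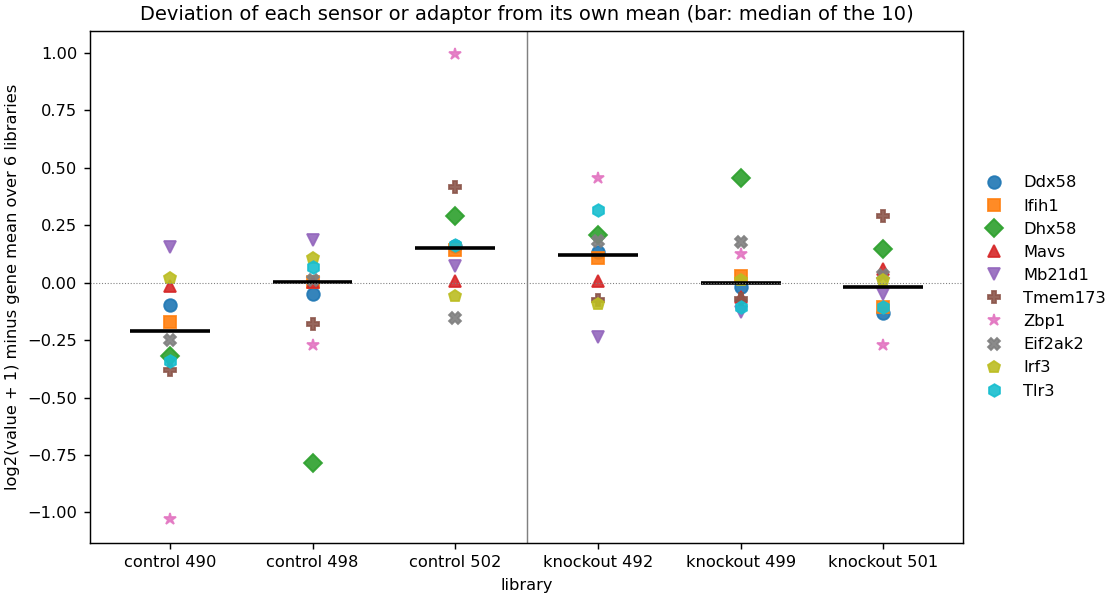
Log2(value + 1) of each gene minus its own mean over the 6 libraries (vertical axis) for each library (horizontal axis), with 1 marker per gene and a black bar for the median of the 10. Control 490 has the lowest median, -0.21, and control 502 the highest, 0.15.

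Of 10862 protein-coding genes with a mean of at least 50, the 5 most like the mean standardised profile of the 10 over the 6 libraries included Ptprc (Pearson r = 0.982), Sall4 (0.976), R3hdm4 (0.976) and Fbf1 (0.973). With 6 libraries and so many candidates, values this high are a description only. Ptprc encodes CD45, a surface phosphatase of leukocytes. It stood at 208, 260 and 335 in controls and at 312, 278 and 274 in knockouts, an order of the controls shared by Ddx58, Ifih1, Mavs, Tmem173, Zbp1 and Tlr3. Ptprc was picked for its likeness to the profile of the 10, so the shared order follows from that choice and is no separate finding.

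Markers of immune cells were measured beside these values. In whole heart, fewer cells of a type and less RNA per cell cannot be told apart. The summed counts of 13 T and NK cell markers were 29.5, 45.1 and 82.4 in controls and 67.6, 57.8 and 51.9 in knockouts, with 1 of the 13 abundant enough to test. The 9 B cell markers summed to 130, 151 and 221 in the controls and to 181, 186 and 149 in the knockouts, with 3 of the 9 tested and the controls in the same order. The lists of dendritic cells and of neutrophils and mast cells did not share that order. The 9 dendritic cell markers summed to 740, 754 and 643 in controls and to 754, 709 and 688 in knockouts, with 2 of the 9 tested. Zbtb46 alone stood at 678, 714 and 608 in controls and at 701, 680 and 657 in knockouts. The dendritic sum therefore mostly gives the level of that gene. The 9 neutrophil and mast cell markers summed to 75.9, 39.5 and 58.0 in controls and to 51.5, 82.4 and 67.7 in knockouts, with 1 of the 9 tested. The 15 macrophage and monocyte markers, all tested, had the controls in the order of the T and B cell lists, with sums of 3346, 3529 and 3615. In knockouts these 15 summed to 3505, 3787 and 3714, and 0 of 15 were called. All T, B and macrophage markers listed had reads in at least 1 library, and their part in the spread of the sensors was not tested. The 10 endothelial markers summed to between 20085 and 20694 in control and between 19924 and 20199 in knockout libraries.

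The wider pathway was described over 9 lists with 235 genes, of which 203 were tested. limma called 0 of them, edgeR 0 and DESeq2 1 of the 111 to which it gave an adjusted p, Pink1. At an unadjusted p under 0.05 limma had 14 of the 203, 10 higher and 4 lower in knockout, where 1.72% of all features were higher and 1.98% lower. Of these 14, 7 were in the list of induced targets. Groups did not overlap for 14 of the 203 that were higher and 7 that were lower in knockout. Over all tested features the shares without overlap were 4.61% higher and 4.9% lower.

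Other sensors had 21 of 31 tested genes above 0 and a median log2 fold change of 0.050, which was 0.031 without knockout 499. Ifi204, a DNA sensor of the interferon-inducible p200 family that shares sequence with its neighbours and so may share reads, was at 101 ± 12.2 in control and 128 ± 7.07 in knockout libraries (SD, n = 3) without overlap. Its log2 fold change was 0.34 with a limma adjusted p of 1.00. Hmgb1, a chromatin protein that also acts outside the nucleus, was at 0.12, but at 0.037 without knockout 492. Among regulators 16 of 38 lay above 0, with a median of -0.012, which were 22 and 0.011 without control 490. Nlrc5, the transactivator of MHC class I genes that has also been described as a regulator of Ddx58 and Ifih1, stood at 159, 188 and 197 in controls and at 273, 263 and 234 in knockouts. The groups did not overlap, and the log2 fold change of 0.50 had a limma adjusted p of 0.293. Zdhhc3, a palmitoyltransferase listed for its reported action on Tmem173, was at -0.16.

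Downstream of the adaptors, 16 of 27 kinases and signalling adaptors lay above 0, with a median of 0.023. Without control 490 these were 12 and -0.026, and without knockout 499 the median was 0.0049. Traf6, a ubiquitin ligase, was at 0.15 and Azi2, a scaffold of the kinase Tbk1, at -0.12. Azi2 was at -0.054 without knockout 499 and at -0.18 without knockout 492. Transcription factors had 10 of 15 above 0 and a median of 0.088, which was 0.00084 without control 490, 0.017 without knockout 499 and 0.031 without control 498. Irf2 was at 0.17. Batf2 was at -0.35, but at -0.59 without control 498 and -0.20 without control 502. The interferons themselves were at or near 0. Of 19 interferon genes, 14 had 0 reads in all 6 libraries, and the other 5 had 16 reads in sum over the 6 libraries. A count of 0 allows up to 3 reads per library. Ifnb1, the interferon that Irf3 turns on most directly, had 3 reads in control 490, 1 in control 502 and 0 in the other 4 libraries. Of their receptors and kinases, 8 were tested, with Ifnar2, a subunit of the type I receptor, at -0.15 and Jak1 at 0.083 (0.054 without knockout 499). The 8 had a median of 0.020, which was -0.0053 without knockout 499.

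Genes induced by the pathway had the highest median of the lists, 0.15, with 22 of 27 tested genes above 0 and 7 higher at an unadjusted p under 0.05. With 1 library left out the 7 became 4 (without control 490 or knockout 499) to 10 (without control 502 or knockout 501). The share of all features at that threshold was not taken for these fits, so a change in the count may be one of the whole table. The count above 0 was 17 without control 490, and the median ran from 0.11 without knockout 499 to 0.23 without control 502. Interferon-stimulated genes were already known to lean upward in these libraries when the list was made, so its counts are a description. Tap1, a peptide transporter, was at 0.48 with a limma adjusted p of 0.303, and Rsad2, an antiviral enzyme, at 0.42 with one of 1.00. In that list the summed counts were 5319, 5951 and 6402 in controls, the same order as Ddx58, and 6817, 6973 and 6239 in knockouts. The lowest knockout lay under the highest control.

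Nucleases and editors that limit the ligands had 14 of 19 tested genes above 0 and a median of 0.047. Rnaseh2b, a subunit of the nuclease that removes ribonucleotides from DNA, stood at 57.2, 46.1 and 43.8 in controls and at 83.7, 64.4 and 80.1 in knockouts. The groups did not overlap, and limma estimated 0.62 (log2, SE 0.18) at an adjusted p of 1.00. Pld4, an endolysosomal nuclease, was at 0.37, with a range from 0.24 without control 490 to 0.54 without knockout 501.

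Genes of mitochondrial RNA turnover and of membrane release had 11 of 26 above 0 and a median of -0.012. Without control 490 these were 15 and 0.011, and the median was -0.028 without knockout 492 and -0.00071 without knockout 499. Pink1, a mitochondrial kinase of mitophagy, stood at 7502, 6959 and 6521 in controls and at 5585, 5635 and 5748 in knockouts. The groups did not overlap. The log2 fold change was -0.30 (SE 0.053), and limma did not call it at an adjusted p of 0.0911, whereas DESeq2 on the recovered reads did, at 0.000606. Vdac1, the outer membrane channel, was at -0.15 with an adjusted p of 1.00. The list of eIF2alpha kinases and phosphatases, in which Eif2ak2 was not counted, had 5 of 12 above 0 and a median of -0.014. Without control 490 these were 7 and 0.0066, and 3 of 12 lay above 0 without control 502 or without knockout 499. Ppp1r15b, the constitutive phosphatase subunit, was at -0.077 and Dnajc3, an inhibitor of Eif2ak2 and of the related Eif2ak3, at -0.051. Dnajc3 was at -0.013 without knockout 499 and at -0.11 without knockout 492.

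**Figure D4:**
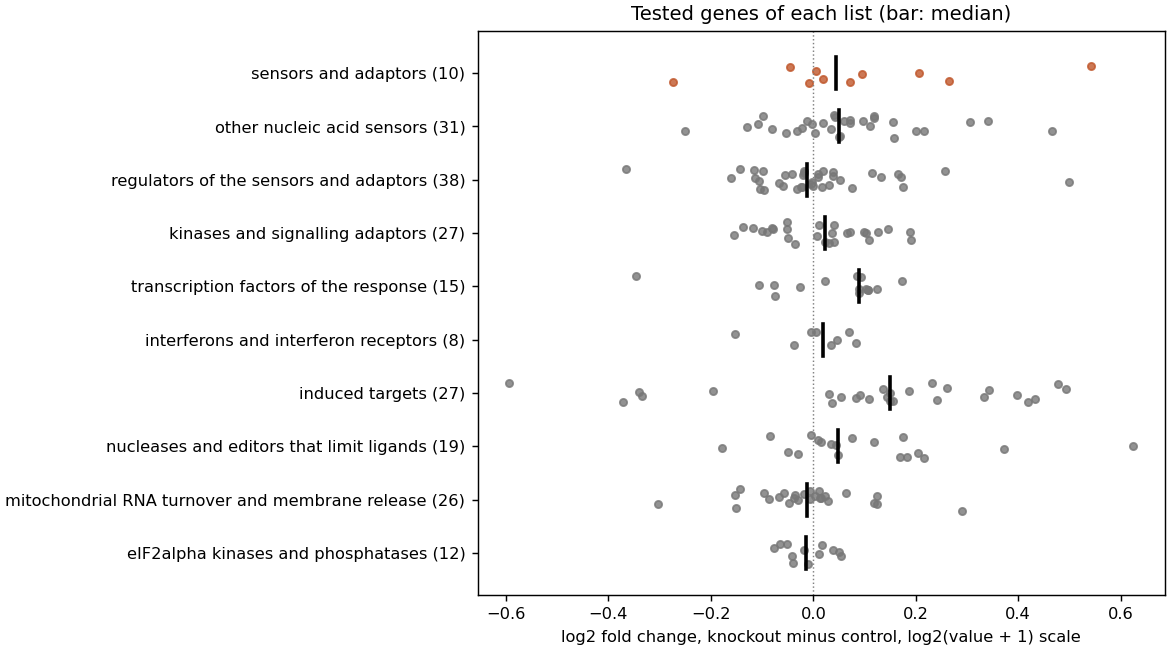
Log2 fold change (horizontal axis, knockout minus control, on the log2(value + 1) scale) of every tested gene in the 10 sensors and adaptors (orange) and the 9 lists of the wider pathway (grey), with the number tested in parentheses and a bar at the median. The induced targets have the highest median, 0.15, and the sensors and adaptors have 0.044.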

How the data were processed

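Libraries of total heart RNA used ribosomal depletion and random hexamers, per the labels' protocols. The authors deposited normalised counts, a signal per gene. Per the submitters' processing notes, Bowtie2 2.3.4.1, bedtools, featureCounts and DESeq2 1.22.2 were used, with builds mm10 and GRCm38 listed. The authors also deposited a DESeq2 table, whose log2 fold changes, score and p-value columns appear only as the authors gave them. Each library's values were multiples of 1 smallest step, and division by it restored whole reads (tolerance 0.01) in 100% of 156689 nonzero values, which edgeR and DESeq2 used. Symbols were joined to 54686 of 54715 Ensembl identifiers. Positions and promoter windows are from RefSeq on GRCm38.p6.

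Values were tested as log2(value + 1) where the mean reached 10 (18250 features), by limma 3.58.1 with a trended prior in R 4.3.3. Tests were 2-sided, genotype was the sole term, and Benjamini-Hochberg adjusted p was called under 0.05. edgeR 4.0.16 quasi-likelihood and DESeq2 1.42.0 were alternatives. The median SE of a log2 fold change was 0.12. The fit was tested on simulated data. Named genes are the 10 members, Rexo2, in each pathway list the called genes or otherwise the 2 of smallest p, and the 5 genes most like the members' profile, of which 1 is not reported here. Other genes are named as background or for a count. The members and lists were chosen with earlier results of these data known. Poisson intervals cover counting error only. Libraries of RNA ends from mitochondria were not analysed here.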

Additional observations from a re-analysis of the deposited data

How the results depend on the processing

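No paired analysis was possible because the labels name no shared litter, batch or day that would tie a control to a knockout. Across 18 alternatives, 0 of the 10 sensors and adaptors were called in any. Of their 177 alternative values 163 kept the direction and 14 turned it, in 6 genes. Equal library totals, which moved the median of all features by -0.069, turned Ifih1 to -0.052 and Mavs to -0.065, and equal totals of features outside mitochondrial DNA turned Ddx58 to 0.018. Leaving out 1 library gave ranges of -0.078 to 0.069 for Ddx58, -0.062 to 0.093 for Ifih1, -0.025 to 0.037 for Mavs, -0.071 to 0.33 for Tmem173, -0.26 to 0.75 for Zbp1 and -0.082 to 0.17 for Tlr3. Features called in the whole table, 4 by limma, numbered 33 with DESeq2 and in the authors' deposited table, 37 with equal library totals, 12 with a filter of a mean above 0, 12 with robust moderation, 0 without a trend (limma), and 1 to 8 when 1 library was left out. Pathway genes called, 0 by limma, numbered 1 with DESeq2, in the authors' deposited table, with equal library totals, with a filter of a mean above 0 and with robust moderation, in each case Pink1. Mb21d1, Dhx58 and Zbp1 did not pass a filter of a mean of at least 50. No member had more than 1 row to sum. Added after the data were seen, leaving out control 502 raised the members whose groups do not overlap from 2 to 6, where 18.7% of all features then had no overlap. Without knockout 499 there were 3, against 17.6% of all features. Without control 490, control 498, knockout 492 or knockout 501 there were still 2, while 18.2% to 21.4% of all features had no overlap. Dhx58, Zbp1 and Mb21d1 rest on 7 to 46 reads per library, and their spread within groups had a chi-square per degree of freedom of 2.38, 5.18 and 0.0802. The median of all tested features was 1.79, and what the spread of these genes comes from was not tested.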
